A study of Mus musculus with 16 samples.

Results

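Microglia, the resident macrophages of the brain, were followed through 31 marker genes in RNA from the mouse prefrontal cortex (PFC). The genes were selected by symbol and not by a cut on measured values, but earlier results of these data were known. All 31 were found among the 23284 genes measured. All 31 also had a mean of at least 0.5 FPKM, the level required for testing, as did 13978 genes in all. FPKM, fragments per kilobase of transcript scaled to 1000000 mapped fragments, is a level that accounts for transcript length.

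The study compared 4 genotypes with 4 libraries each. APC cKOs carried 2 floxed alleles of Apc, which encodes a scaffold protein that targets β-catenin for degradation. β-cat cOEs carried 1 allele of Ctnnb1, the β-catenin gene, with a floxed exon 3, whose removal stabilizes the protein. APC/β-cat cKOs carried floxed alleles of both Apc and Ctnnb1. In the 3 mutant lines Cre was driven by the CamKIIα promoter, which per the paper is active mainly in excitatory forebrain neurons. Whether Cre was active in microglia was not tested here. Controls were littermates without Cre taken from all lines. Mice of both sexes were 2 to 3 months old, and Xist and Y-linked transcripts gave 2 female libraries, control replicate 1 and APC cKO replicate 1, and 14 male ones. The comparisons ask how raised β-catenin (APC cKOs and β-cat cOEs) or its loss together with APC (APC/β-cat cKOs) in neurons was reflected in the PFC transcriptome.

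Microglia depend on Csf1r signalling for survival, survey tissue with purinergic and fractalkine receptors, tag synapses with the complement protein C1q, and sense lipids and debris through the receptor pair TREM2 and DAP12 (Tyrobp). Their lysosomes hold cathepsin S and lysozyme, and they share CD14 and other pattern-recognition proteins with blood monocytes. In whole tissue, fewer microglia and less RNA per microglial cell cannot be told apart.

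Apc itself ranged from 7.85 to 17.1 FPKM in APC cKOs and from 6.80 to 12.2 FPKM in APC/β-cat cKOs, against 40.8 to 50.1 FPKM in controls, so those labels held. Ctnnb1 at the level of the whole gene did not pass the test in APC/β-cat cKOs (log2 change -0.05, SE 0.0458, adjusted p = 0.643), and its deleted exons were not resolved here. Sequencing depth was not recoverable from the values, and 5726 to 6649 genes were listed at 0 per library.

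One microglia gene, Cd14, passed the test across all genes, and in 1 comparison: it was lower in APC cKOs than in β-cat cOEs. The other 30 genes passed in none of 8 comparisons. At an unadjusted p under 0.05, the microglia genes that reached it were all lower in APC cKOs than in APC/β-cat cKOs (10 genes, 32.3%, where 6.13% of all genes were lower) or β-cat cOEs (6 genes, 19.4%, where 3.93% were), and all higher in APC/β-cat cKOs than in controls (8 genes, 25.8%, where 7.17% were). Leaving out 1 library took these counts as low as 5, 3 and 4 genes. In β-cat cOEs against controls 4 genes (12.9%) were higher and 0 lower, where 2.3% and 2.77% of all genes were. That count was 3 to 6 with 1 library left out. APC cKOs against controls had 1 gene higher and 2 lower (4.82% and 5.19% of all genes), with a median log2 change of 0.01. Differences were tested with limma on log2(FPKM + 0.1) over all 16 libraries, with p-values adjusted by the Benjamini-Hochberg method over the 13978 genes.

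The microglia genes spanned a wide range of levels. Ctss, the lysosomal protease cathepsin S, was highest with a mean of 58.9 FPKM over 16 libraries. The complement chain genes C1qb and C1qc followed at 31.4 and 30.1 FPKM, then Tyrobp at 29.1 FPKM and C1qa at 28.5 FPKM. Irf8, a myeloid transcription factor, averaged 1.22 FPKM, the granulocyte colony-stimulating factor receptor gene Csf3r 0.981 FPKM, and Ptprc, the pan-leukocyte phosphatase CD45, 0.568 FPKM. The median over the 31 genes was 9.01 FPKM, beside 10.01 FPKM over all genes tested. Ptprc was the nearest of the 31 to the limit of 0.5 FPKM.

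**Figure D1:**
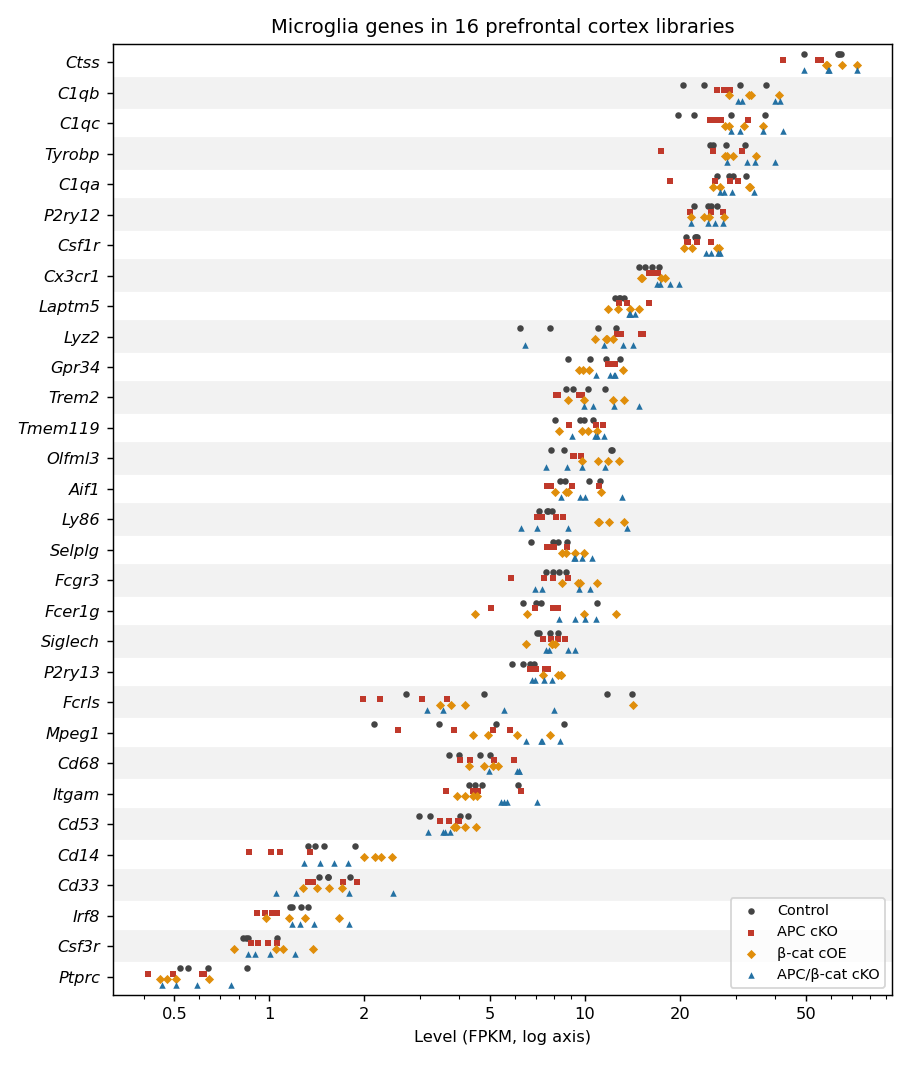
Level of each microglia gene in FPKM (log axis) in 16 PFC libraries, 1 point per library, with genes ordered by mean and genotypes by colour and shape. Ctss lies highest, Ptprc lowest, and Fcrls is the most scattered gene, from 1.98 to 14.2 FPKM.

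The genes differed in how steady they were across mice. Laptm5, a lysosomal membrane protein gene, had a coefficient of variation of 7.55% over the 16 libraries, Cx3cr1 8.13% and P2ry12 8.24%. Fcrls, an Fc receptor-like gene restricted to microglia in the brain, was at the other end with 73.0%. It stood at 11.8 and 14.0 FPKM in control replicates 2 and 3 and at 14.2 FPKM in β-cat cOE replicate 2, and at 1.98 to 7.99 FPKM in the other 13 libraries. Mpeg1, which encodes the pore-forming protein perforin-2, followed with 35.5%, then Cd14 with 29.1% and Fcer1g with 27.2%. The median SD within genotypes was 0.208 on the log2 scale for the 31 genes, beside 0.146 over all genes tested.

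Cd14 and Ly86, 2 co-receptor genes of the toll-like receptor family, separated the 2 lines with raised β-catenin without overlap. CD14 presents lipopolysaccharide to TLR4, and LY86 (MD-1) pairs with the TLR4-related receptor CD180. Cd14 measured 1.01, 1.35, 1.08 and 0.861 FPKM in APC cKO replicates 1 to 4, and 2.44, 2.26, 2.16 and 1.99 FPKM in β-cat cOE replicates 1 to 4. Controls were at 1.32, 1.49, 1.87 and 1.398 FPKM and APC/β-cat cKOs at 1.44, 1.77, 1.60 and 1.29 FPKM, with means of 1.52 ± 0.243 and 1.53 ± 0.208 FPKM (SD, n = 4) that lay between. The APC cKO and β-cat cOE libraries did not overlap, both other groups overlapped APC cKOs, and each β-cat cOE library exceeded every library of the other 3 genotypes. Cd14 was lower in APC cKOs than in β-cat cOEs by a log2 change of -0.99 (SE 0.149, adjusted p = 0.0172, fold 0.503), where 0.0429% of all genes passed in either direction. In an exact two-sided permutation test of the same 8 libraries p was 0.0286, the smallest that 4 against 4 allows. Relative to controls the log2 change of Cd14 was -0.47 for APC cKOs (adjusted p = 0.326), 0.01 for APC/β-cat cKOs and 0.52 for β-cat cOEs (SE 0.149, unadjusted p = 0.003, adjusted p = 0.946). Cd14 in β-cat cOEs also exceeded APC/β-cat cKOs, by 0.51 (SE 0.149, unadjusted p = 0.00342, adjusted p = 0.184), and none of these 4 differences passed.

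The Cd14 call was lost under 10 of 26 alternatives. Among them it was lost without APC cKO replicate 1, 3 or 4 and without any single β-cat cOE replicate, with adjusted p from 0.0510 to 0.0965. It was also lost with sex as a covariate (adjusted p = 0.0512) or with only the groups compared in the fit (adjusted p = 0.0830). With the number in the sample titles as a replicate block the log2 change was -0.86 (adjusted p = 0.241). Over 26 alternatives the log2 change stayed between -1.10 and -0.63, with adjusted p from 0.00921 to 0.241.

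Monocytes and neutrophils also express Cd14. The summed level of 12 of their markers was 15.7 to 50.9 FPKM for APC cKOs and 23.2 to 33.5 FPKM for β-cat cOEs, beside 9.41 to 27.7 FPKM in controls and 15.8 to 36.6 FPKM in APC/β-cat cKOs, and their part in the Cd14 result was not tested. Of these 12 markers 7 averaged under 0.5 FPKM, Ccr2 among them at 0.142 FPKM. Over the 5 tested, the median log2 change was -0.72 in APC cKOs against β-cat cOEs. There 1 was higher and 0 lower at an unadjusted p under 0.05 (3.63% and 3.93% of all genes). Relative to controls the median was 1.26 in β-cat cOEs, 0.54 in APC cKOs and 0.50 in APC/β-cat cKOs. Among 10 genes of the lipopolysaccharide receptor pathway listed apart from the members, 9 were tested, and none reached an unadjusted p under 0.05 in any of the 8 comparisons. Cd14 lies at chr18:36725067-36726798 (GRCm38, minus strand), 2.40 Mb from Apc, and whether this position bears on the result was not tested.

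Ly86 was high in β-cat cOEs, while APC cKOs lay with the controls. It measured 11.0, 11.1, 13.3 and 11.9 FPKM in β-cat cOEs. Controls were at 7.63, 7.15, 7.58 and 7.88 FPKM, and APC cKOs at 8.10, 7.29, 8.53 and 7.02 FPKM. The β-cat cOE libraries overlapped neither of these groups. The log2 difference from controls was 0.63 (SE 0.168, unadjusted p = 0.0017, adjusted p = 0.946), and APC cKOs differed from β-cat cOEs by -0.61 (SE 0.168, adjusted p = 0.325). APC/β-cat cKOs were split, at 7.04, 8.83, 6.27 and 13.6 FPKM. Without the high library, APC/β-cat cKO replicate 4, Ly86 was called higher in β-cat cOEs than in APC/β-cat cKOs (log2 change 0.68, adjusted p = 0.0197), which it was not with all 4 (log2 change 0.46, adjusted p = 0.307).

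**Figure D2:**
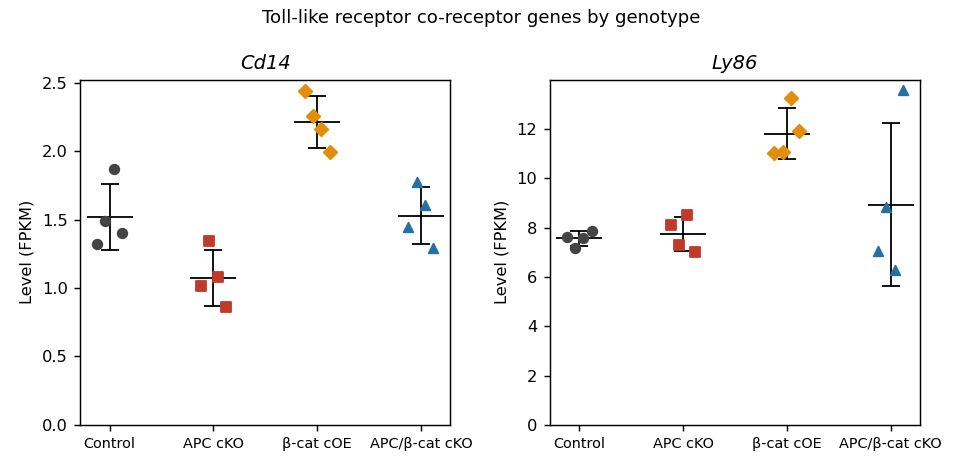
Cd14 and Ly86 in FPKM by genotype, 1 point per library, with bars at the mean and error bars of 1 SD (n = 4). Mean Cd14 was highest for β-cat cOEs and lowest for APC cKOs, and Ly86 was high in the 4 β-cat cOE libraries and in 1 APC/β-cat cKO library.

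Among the 10 surface receptor and homeostatic marker genes, Fcrls gave the lowest fitted change of the 31 in APC cKOs. It measured 3.64, 2.24, 3.05 and 1.98 FPKM there, against 2.71, 11.8, 14.0 and 4.78 FPKM in controls, with overlap. The log2 change was -1.33 (SE 0.503, unadjusted p = 0.0178, adjusted p = 0.392), and APC cKOs stood at -0.97 relative to β-cat cOEs and -0.81 relative to APC/β-cat cKOs. The other 9 genes varied less. The ADP receptor gene P2ry12 had genotype means of 24.4 to 24.8 FPKM, and the fractalkine receptor gene Cx3cr1 from 15.9 FPKM in controls to 18.1 FPKM in APC/β-cat cKOs. Over 16 libraries Gpr34 averaged 11.4 FPKM, Tmem119 10.1 FPKM, Olfml3 10.1 FPKM and Siglech 7.85 FPKM. P2ry13, a second ADP receptor gene next to P2ry12 on chromosome 3, measured 8.40, 7.37, 8.37 and 8.18 FPKM in β-cat cOEs, against 6.37, 6.89, 6.68 and 5.85 FPKM in controls. The 2 groups did not overlap, and the log2 change was 0.32 (SE 0.0734, unadjusted p = 0.000482, adjusted p = 0.749). Relative to controls P2ry13 was also higher, with overlap, in APC/β-cat cKOs (log2 change 0.17, unadjusted p = 0.0348) and APC cKOs (0.16, unadjusted p = 0.0511). P2ry12 and P2ry13 did not track each other across the 16 libraries (Pearson r = 0.104, permutation p = 0.699; Spearman rho = 0.0912, permutation p = 0.737).

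Csf1r, the receptor for the survival factors CSF1 and IL-34, measured 25.1, 26.8, 24.2 and 26.4 FPKM in APC/β-cat cKOs and 22.3, 22.4, 20.9 and 22.7 FPKM in controls. Every APC/β-cat cKO library was above every control, with a log2 change of 0.21 (SE 0.0804, unadjusted p = 0.0176, adjusted p = 0.283). Selplg, which encodes the adhesion ligand PSGL-1, gave the same order. It measured 9.79, 9.21, 9.29 and 10.5 FPKM in APC/β-cat cKOs, 8.199, 7.94, 8.79 and 6.74 FPKM in controls and 7.96, 7.78, 8.74 and 7.56 FPKM in APC cKOs. APC/β-cat cKOs lay above both groups without overlap, by a log2 change of 0.29 over controls (SE 0.0829, adjusted p = 0.206), and APC cKOs were below them by -0.27 (SE 0.0829, adjusted p = 0.267). β-cat cOEs overlapped APC/β-cat cKOs for both genes, at 20.6 to 26.5 FPKM for Csf1r and 8.43 to 9.89 FPKM for Selplg. Selplg was 0.20 higher in β-cat cOEs than in controls on the log2 scale (unadjusted p = 0.0283), with overlap.

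Several of these genes overlap a neighbour in the annotation. P2ry12 and P2ry13 lie within Med12l and Gpr34 within Cask, on the opposite strand. Exons of P2ry12, Csf1r and Cx3cr1 overlap exons on the opposite strand, and those of P2ry13 and Gpr34 overlap none. The library kit kept strand, but whether the counting used it is not given in the sources used here. Reads of the overlapping exons may therefore not have been separated. Cx3cr1 lies 0.859 Mb from Ctnnb1, and its log2 change in APC/β-cat cKOs was 0.18 (SE 0.0717, adjusted p = 0.290).

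The 3 chains of C1q, which start the classical complement pathway and mark synapses for removal by microglia, are encoded side by side within 18.7 kb of chromosome 4. C1qb measured 27.5, 26.2, 27.8 and 28.8 FPKM in APC cKOs and 30.4, 41.6, 31.3 and 39.9 FPKM in APC/β-cat cKOs. The APC cKO libraries were all below the APC/β-cat cKO ones, by a log2 change of -0.36 (SE 0.16, adjusted p = 0.465), and controls spread over both, at 23.8, 20.4, 37.4 and 30.996 FPKM. C1qc was close to C1qb in each library. C1qb divided by C1qc lay between 0.847 and 1.21 in the 16 libraries, and C1qb and C1qc levels were correlated (Pearson r = 0.900, Spearman rho = 0.868, permutation p = 2e-05 for both, the smallest that 100000 resamples can give here, and 0.00012 after adjustment over 6 pairs). The correlation was 0.865 without the 2 libraries farthest from the median of C1qb and 0.870 in deviations from the genotype means. C1qa did not follow. It correlated with C1qb at r = 0.106 (rho = 0.00588, permutation p = 0.692 and 0.991) and with C1qc at r = 0.0901 (rho = 0.0235, permutation p = 0.731 and 0.937), and C1qa divided by C1qc ran from 0.688 to 1.64. The 6 pairs were chosen as known complexes and neighbours after the values had been seen.

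**Figure D3:**
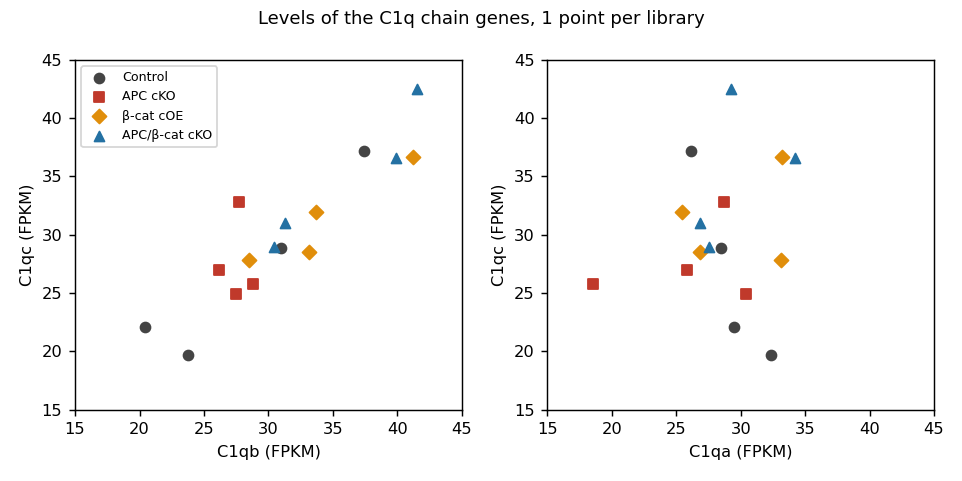
Levels in FPKM of C1qc against C1qb (left) and against C1qa (right), 1 point per library, coloured by genotype. C1qb and C1qc lie along 1 line (r = 0.900), whereas C1qa and C1qc form a cloud (r = 0.0901).

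The bases upstream of the 2 chain genes that tracked each other are shown because the myeloid transcription factor PU.1, which specifies microglia, binds purine-rich sites with the core GAGGAA. They are RefSeq promoter sequence of build GRCm38.p6, minus strand, written 5′ to 3′, with GAGGAA or its reverse complement TTCCTC in capitals. For C1qc the bases that GENCODE annotates inside the gene were left out.
C1qb, chr4:136886201-136886450: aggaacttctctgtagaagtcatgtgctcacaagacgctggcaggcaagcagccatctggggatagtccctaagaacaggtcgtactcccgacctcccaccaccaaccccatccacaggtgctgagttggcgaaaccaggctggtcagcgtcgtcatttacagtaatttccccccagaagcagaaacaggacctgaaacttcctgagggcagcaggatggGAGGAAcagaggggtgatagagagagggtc
C1qc, chr4:136893066-136893164: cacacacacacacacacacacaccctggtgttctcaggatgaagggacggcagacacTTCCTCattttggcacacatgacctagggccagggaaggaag
Each stretch held 1 match. Promoter sequence was matched for 24 of the 31 genes, and C1qa was not among them. In the 250 bases before the start, searched on both strands, 15 of these 24 genes (62.5%) held GAGGAA, beside 25.8% of 9892 tested genes with a promoter. The longer GAGGAAGT, which contains it, was found for 1 of the 24 (4.17%), C1qc, where it spans the printed match, and for 2.65% of the tested genes. A match describes letters only, and binding was not measured.

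The immunoreceptor genes Trem2 and Tyrobp had lower means in APC cKOs than in APC/β-cat cKOs. TREM2, a lipid and debris receptor, signals through the adaptor DAP12, the product of Tyrobp. Trem2 measured 8.197, 9.78, 9.56 and 8.12 FPKM in APC cKOs and 9.91, 14.8, 10.6 and 12.3 FPKM in APC/β-cat cKOs. The groups did not overlap (log2 change -0.40, SE 0.141, adjusted p = 0.332), and controls, at 8.68 to 11.6 FPKM, overlapped both. Tyrobp ranged from 17.4 to 31.4 FPKM in APC cKOs and from 28.2 to 39.9 FPKM in APC/β-cat cKOs, with a log2 change of -0.46 (SE 0.148, adjusted p = 0.292). Trem2 and Tyrobp were correlated across the 16 libraries (r = 0.661, permutation p = 0.00306, adjusted 0.00918; rho = 0.676, permutation p = 0.00524, adjusted 0.0157). The correlation was 0.706 without the 2 libraries farthest from the median of Trem2, and 0.438 in deviations from the genotype means.

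The Fc receptor genes Fcgr3 and Fcer1g, whose products assemble with each other, averaged 8.44 and 8.22 FPKM. Their correlation, 0.422 (permutation p = 0.104; rho = 0.318, permutation p = 0.226), fell to 0.00684 without the 2 libraries farthest from the median of Fcgr3. Cd33, an inhibitory sialic acid receptor gene, averaged 1.57 FPKM, and its range in APC/β-cat cKOs, 1.05 to 2.46 FPKM, contained every other library.

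Among the lysosomal and phagocytic genes, Ctss, Lyz2 and Mpeg1 each separated at least 1 pair of genotypes at an unadjusted p under 0.05. Laptm5 did not overlap between APC/β-cat cKOs and controls either, but its log2 change was 0.12 (unadjusted p = 0.15). Ctss measured 56.1, 54.5, 55.3 and 42.3 FPKM in APC cKOs and 65.2, 72.5, 58.4 and 58.1 FPKM in β-cat cOEs, without overlap (log2 change -0.29, SE 0.123, adjusted p = 0.597). Lyz2, lysozyme, had the opposite order. It measured 15.1, 15.3, 12.96 and 12.66 FPKM in APC cKOs and 12.5, 6.24, 11.0 and 7.77 FPKM in controls, a log2 change of 0.62 (SE 0.222, adjusted p = 0.371). The lowest APC cKO library and the highest control were almost level, APC cKOs did not overlap β-cat cOEs for Lyz2 either (log2 change 0.27, unadjusted p = 0.247), and reads of the near-identical copy Lyz1 may not have been separated. Mpeg1 measured 5.10, 3.84, 5.79 and 2.55 FPKM in APC cKOs and 8.31, 6.50, 7.28 and 7.24 FPKM in APC/β-cat cKOs, a log2 change of -0.81 (SE 0.328, adjusted p = 0.422). Mpeg1 in controls covered that whole span, from 2.15 to 8.59 FPKM. Cd68, a lysosomal glycoprotein gene, averaged 5.85 ± 0.603 FPKM in APC/β-cat cKOs and 4.32 ± 0.595 FPKM in controls (SD, n = 4), a log2 change of 0.43 (SE 0.128, adjusted p = 0.231) with overlapping libraries.

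Of the leukocyte adhesion and membrane genes, Itgam, the CD11b integrin chain, measured 4.41, 4.55, 4.16 and 3.93 FPKM in β-cat cOEs, against 7.06, 5.53, 5.64 and 5.41 FPKM in APC/β-cat cKOs. The groups did not overlap (log2 change -0.46, SE 0.146, adjusted p = 0.228). Exons of Itgam overlap the annotated gene Gm49368 on the same strand, and whether their reads were separated was not tested. Aif1, which encodes the microglial stain IBA1, averaged 9.49 FPKM and Cd53, a tetraspanin gene, 3.76 FPKM, and neither reached an unadjusted p under 0.05 in any comparison. Irf8, a transcription factor that acts with PU.1, measured 0.914, 1.05, 1.02 and 0.968 FPKM in APC cKOs and 1.18, 1.25, 1.38 and 1.79 FPKM in APC/β-cat cKOs, without overlap (log2 change -0.45, SE 0.159, adjusted p = 0.335). APC cKO libraries also lay below the controls, which ranged from 1.17 to 1.32 FPKM, but with an unadjusted p of 0.0844 (limma, log2 change -0.29). At about 1 FPKM these differences are small in absolute level.

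Counted together, the 31 genes were compared with the background of all genes tested. In APC cKOs against controls none passed after adjustment (0.0429% of all genes did), 1 was higher and 2 were lower at an unadjusted p under 0.05 (4.82% and 5.19% of all genes), and 2, Lyz2 and Irf8, did not overlap between groups (5.47% of all genes). These shares were close to the background, and the median log2 change was 0.01. In β-cat cOEs against controls none passed (0.0143%), 4 were higher and 0 lower (2.3% and 2.77%), and 3 did not overlap (3.08%), with a median of 0.10. In APC/β-cat cKOs against controls none passed (0.207%), 8 were higher and 0 lower (7.17% and 7.03%), and 3, Csf1r, Selplg and Laptm5, did not overlap (5.21%), with a median of 0.15. The 8 were Cx3cr1, P2ry13, Csf1r, Selplg, C1qb, C1qc, Cd68 and Mpeg1. They were 25.8% of the list, but the count was 4 without control replicate 1 or APC/β-cat cKO replicate 4 and 5 without APC/β-cat cKO replicate 2. All 3 comparisons share the same 4 controls.

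**Figure D4:**
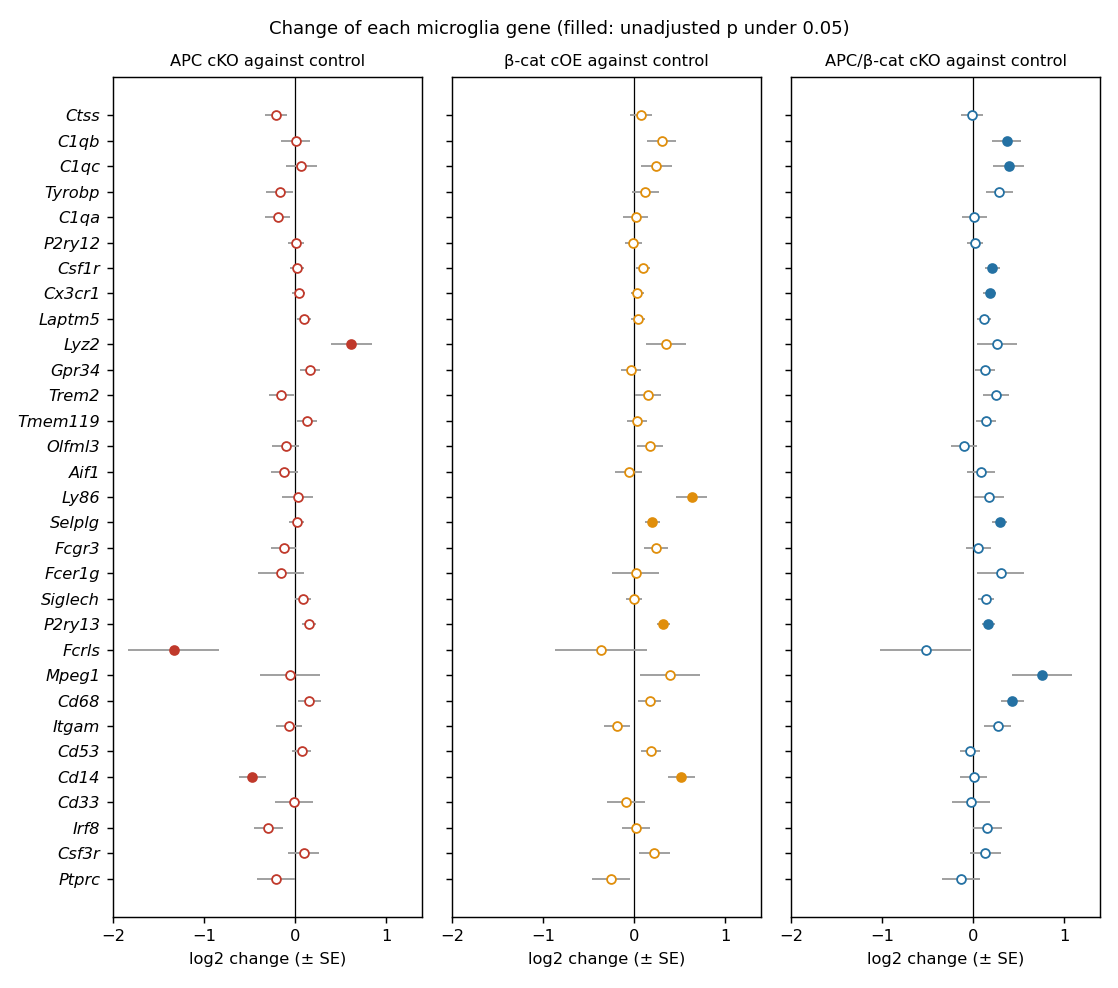
Log2 change (± SE from limma) of each microglia gene in the 3 mutant lines against controls, with filled points at an unadjusted p under 0.05 and genes ordered by mean level. Filled points number 8 for APC/β-cat cKOs, 4 for β-cat cOEs and 3 for APC cKOs, and none passed after adjustment.

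Both comparisons of APC cKOs with another mutant line, which share the 4 APC cKO libraries, had lower genes and no higher ones. In APC cKOs against APC/β-cat cKOs none passed (0.215%), 0 were higher and 10 lower at an unadjusted p under 0.05 (4.15% and 6.13% of all genes), and 6 did not overlap (5.49%). The 10 were Csf1r, Selplg, C1qb, Trem2, Tyrobp, Cd68, Mpeg1, Itgam, Cd14 and Irf8, 32.3% of the list, and the count was 5 without APC cKO replicate 2. The median was -0.19, and -0.10 without APC cKO replicate 4. In APC cKOs against β-cat cOEs, Cd14 was the 1 gene that passed, 0 were higher and 6 lower (3.63% and 3.93%), and 5 did not overlap (5.2%), with a median of -0.17. The 6 were P2ry13, Selplg, Fcgr3, Ctss, Cd14 and Ly86. Without APC cKO replicate 4 the count was 3 and the median -0.09. Comparing β-cat cOEs with APC/β-cat cKOs, none passed (0.229%), 2 were higher and 1 lower (5.04% and 6.88%), and 3, Itgam, Cd53 and Cd14, did not overlap (6.3%), with a median of -0.09. These 3 became 6 without β-cat cOE replicate 2 or 4, and 5 without control replicate 4 or APC/β-cat cKO replicate 4. The medians over all genes tested lay between -0.00421 and 0.00305 in the 6 comparisons between 2 genotypes.

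Pooling lines by genotype gave less. In the lines with deleted APC against the APC-intact groups none passed (0.386%), 2 genes were higher, Gpr34 and Cd68, and 1 lower, Cd14 (7.03% and 6.25%), Cd14 with a log2 change of -0.49 (SE 0.105, adjusted p = 0.0656). Cd14 was called there without control replicate 1 (adjusted p = 0.0343) or APC cKO replicate 2 (adjusted p = 0.0365), and the 3 genes became 1 without APC cKO or β-cat cOE replicate 3, 5 without APC/β-cat cKO replicate 4 and 7 without control replicate 4. In the lines with raised β-catenin against the other groups none passed (0.0572%), 2 were higher, P2ry13 and Lyz2, and 1 lower, Itgam (3.68% and 5.16%), and the 3 became 5 without control replicate 1 and 1 without control replicate 4. The median over the 31 genes was 0.02 in the former comparison and -0.04 in the latter.

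The values of the same 31 genes were also read library by library, which restates the differences above and is not a separate test. The median deviation of the 31 genes from their 16-library means was between -0.12 and -0.00135 in controls, -0.15 and -0.05 in APC cKOs, 0.03 and 0.17 in APC/β-cat cKOs, and -0.03 and 0.14 in β-cat cOEs, all on the log2 scale. APC/β-cat cKO libraries were all above the control and APC cKO ones. Summed over the 31 genes, levels were 366 to 421 FPKM in controls, 398 to 460 FPKM in APC/β-cat cKOs, 332 to 388 FPKM in APC cKOs and 391 to 453 FPKM in β-cat cOEs. APC cKO replicate 4 was the lowest of 16 libraries for 7 genes, and APC/β-cat cKO replicate 4 the highest for 9.

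**Figure D5:**
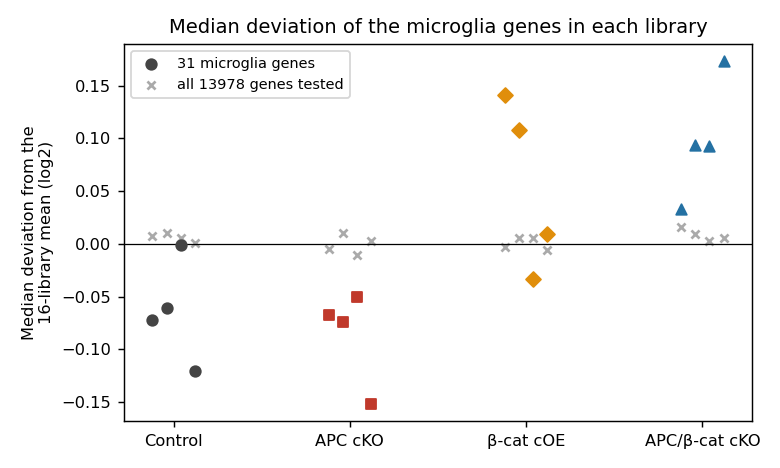
Median deviation from the 16-library mean (log2) of the 31 microglia genes in each library (coloured points) and of all 13978 genes tested (grey crosses). The microglia genes were between 0.03 and 0.17 in APC/β-cat cKOs and below 0 in every control and APC cKO library, and the crosses lie between -0.011 and 0.016.

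Other gene lists were read beside these. Of 55 further microglia genes 54 were found and 50 tested, and none passed in any comparison. At an unadjusted p under 0.05, 2 were higher and 7 lower in APC cKOs than in APC/β-cat cKOs (4.15% and 6.13% of all genes). In APC/β-cat cKOs 5 were higher and 2 lower than in controls (7.17% and 7.03% of all genes). The medians were -0.04 and 0.03. These medians were nearer to 0 than those of the 31 genes. Oligodendrocyte markers leaned the same way as the 31 genes in some comparisons and not in others. Of 12, 10 had an unadjusted p under 0.05, all lower in APC cKOs than in APC/β-cat cKOs, where 6.13% of all genes were lower. The median log2 change over the list was -0.45, and none passed after adjustment. The median of these markers was 0.18 in APC/β-cat cKOs and 0.00588 in β-cat cOEs, both relative to controls, where the 31 genes had 0.15 and 0.10. In APC cKOs relative to controls it was -0.26, with 6 of 12 lower (5.19% of all genes), where the 31 genes had 0.01. Their summed level was 740 to 877 FPKM in APC cKOs, 1061 to 1204 FPKM in APC/β-cat cKOs, 827 to 1246 FPKM in controls and 838 to 1090 FPKM in β-cat cOEs, and the part of tissue composition in the microglia result was not tested. Of 16 endothelial and mural markers 0 were higher and 5 lower in APC cKOs than in controls (4.82% and 5.19% of all genes). Rgs5, a pericyte gene, was called lower in the lines with deleted APC (log2 change -0.43, adjusted p = 0.0313). Vip, 1 of 12 interneuron markers, was also called lower in that comparison, where 0.386% of all genes passed.

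Genes of microglial activation gave no call. Of 20 genes of disease-associated microglia 17 were tested. In each comparison between 2 genotypes 0 to 2 were higher and 0 to 2 lower at an unadjusted p under 0.05. Of all genes 2.3% to 7.17% were higher and 2.77% to 7.03% lower in these comparisons. In the lines with deleted APC against the APC-intact groups 3 were higher and 0 lower, where 7.03% and 6.25% of all genes were. Of 15 inflammatory cytokine and chemokine genes 4 reached a mean of 0.5 FPKM. Border-associated macrophage markers summed to 6.86 to 12.02 FPKM over the 16 libraries, with 4 of 11 under 0.5 FPKM, and lymphocyte markers to 0.634 to 4.51 FPKM, with 11 of 12 under 0.5 FPKM and Cd3e at 0.00694 FPKM.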

How the data were processed

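RNA from the PFC of 16 mice, 4 per genotype, was sequenced by the authors with a stranded mRNA kit. The authors mapped reads to mm10 with TopHat2 2.0.10 and made expression values with the Cufflinks package (Cuffdiff 2.1.1), per the labels. The deposited table holds log2 values, read here as log2(FPKM + 1). The base was inferred, since FPKM times median transcript length summed to 592239 to 627186 per library read as log2 and would exceed the 1000000 fragments of the scale read as natural log. The design had assumed FPKM, so values were turned back to FPKM and the tests kept. All 16 value columns were used. Depth is unknown, so no counting interval is given.

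All 8 comparisons were fitted in 1 model with limma 3.58.1 (R 4.3.3) on log2(FPKM + 0.1), with a trend and 12 residual degrees of freedom, for genes averaging 0.5 FPKM or more, and p-values were adjusted by the Benjamini-Hochberg method. The offset understates changes of low genes. The fit was tested on simulated data. Single values were also compared by exact two-sided permutation tests. P-values measure the spread between these mice. Every microglia gene was named, and full statistics were given where the adjusted p was under 0.05, or the unadjusted p was under 0.05 and the groups did not overlap; those for other genes were chosen after their values were seen. The genes and lists were chosen with earlier results of these data known. Alternatives changed the offset, filter, scaling, trend, samples fitted, sex and replicate number, and left out each library; a fit with the set of consecutive column numbers as a block was added after seeing the data. Positions are from GENCODE M21 and RefSeq (GRCm38), and promoters from RefSeq.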

Additional observations from a re-analysis of the deposited data

Results flagged for a closer look

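In 9 of 124 groups of 4 libraries, 1 library stood apart by Dixon's ratio, the gap to the nearest library over the range of the group, where chance gives 6.2. In controls these were Ctss in replicate 4 (49.4 FPKM, ratio 0.906) and Csf3r in replicate 1 (1.06 FPKM, ratio 0.862). In APC cKOs they were Ctss in replicate 4 (42.3 FPKM, ratio 0.887) and Olfml3 in replicate 3 (9.68 FPKM, ratio 0.831). In β-cat cOEs replicate 2 stood apart for both Fcrls (14.2 FPKM, ratio 0.934) and Siglech (6.49 FPKM, ratio 0.856). In APC/β-cat cKOs they were Cd68 in replicate 2 (4.95 FPKM, ratio 0.939), Itgam in replicate 1 (7.06 FPKM, ratio 0.861) and Laptm5 in replicate 3 (14.4 FPKM, ratio 0.839).

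Cd14 differed between the 2 lines with raised β-catenin, with a log2 change of -0.99 in APC cKOs against β-cat cOEs (limma, adjusted p = 0.0172), a call lost under 10 of 26 alternatives. The control mean lay between them, with libraries that overlapped APC cKOs.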

How the results depend on the processing

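No called value changed sign. The medians nearest to 0 did with 1 library left out, from -0.0487 to 0.0376 in APC cKOs against controls (0.01 with all) and from -0.0028 to 0.0441 in APC-deleted against APC-intact groups (0.02 with all). The 16 single-gene differences kept their direction under up to 27 alternatives, and 15 of them kept their side of the threshold. The exception was Cd14 in APC cKOs against β-cat cOEs, called under 16 of 26 alternatives. The number of microglia genes called there was 1, and 0 at a mean of at least 2 FPKM, where Cd14 was not tested, with sex as a covariate, with only the groups compared and with the title number as a replicate block (adjusted p = 0.241 for Cd14). It was 0 to 1 with 1 library left out. In APC-deleted against APC-intact groups it was 0, and 1 (Cd14) with an offset of 1, quantile normalization or no trend, and 0 to 1 with 1 library left out, as when β-cat cOEs were compared with APC/β-cat cKOs.

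Counts at an unadjusted p under 0.05 moved by over 1.5 times as follows. In APC cKOs against controls the count went from 3 to 5 without the trend. In APC/β-cat cKOs against controls it went from 8 to 5 with sex as a covariate or only the groups compared, and to between 4 and 10 with 1 library left out. In APC cKOs against β-cat cOEs it went from 6 to 11 with only the groups compared, to 2 with the replicate block, and to between 3 and 7 with 1 library left out. For APC cKOs relative to APC/β-cat cKOs it lay between 5 and 11 with 1 library left out. For β-cat cOEs relative to APC/β-cat cKOs it went from 3 to 5 with sex as a covariate or with the replicate block, and to between 3 and 6 with 1 library left out. In APC-deleted against APC-intact groups it went from 3 to 1 with the replicate block, and to between 1 and 7 with 1 library left out, and in raised β-catenin against the other groups to between 1 and 5. The median in APC cKOs against β-cat cOEs moved from -0.17 to -0.11 with the replicate block and lay between -0.167 and -0.0851 with 1 library left out, and that in APC cKOs against APC/β-cat cKOs moved from -0.19 to -0.13 and lay between -0.23 and -0.104. The causes were not tested.

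Correlations of the deviations from the genotype means were computed between libraries of different genotypes. With the same title number the correlations ran from -0.218 to 0.322 over 21 pairs (median -0.0693, 4 above 0.1). With different numbers they ran from -0.275 to 0.222 over 75 pairs (median 0.00532). These values cannot tell whether the numbers pair the mice. The block by column set moved no count by over 1.5 times. Depth is unknown, so the counting error of low genes such as Irf8, Csf3r and Ptprc cannot be given.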
